A study of Mus musculus with 9 samples.

Results

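The genes described here build and cross-link elastic fibres: the lysyl oxidases Lox, Loxl1, Loxl2, Loxl3 and Loxl4, elastin (Eln), the fibrillins Fbn1 and Fbn2, and the fibulins Fbln5 and Efemp2. They were chosen by name, 10 genes in all, and every probe set that the array annotation pairs with one of them was read. Of the 10, 7 had probe sets of their own, 14 in number, and all 7 passed the filter on low values, among 12559 genes tested of 18193. Loxl2 was covered by 2 probe sets that the annotation pairs with both Loxl2 and Gm21451, so their values are given for the pair of genes and enter no count. Fbn1 and Efemp2 were not analysed here.

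RNA was measured on 9 one-colour Affymetrix arrays, 3 for each kind of mouse cell, in a study of turning fibroblasts into heart muscle cells with chemicals. MEF are embryonic fibroblasts, the connective tissue cells grown from C57BL/6 embryos at embryonic day 13.5, and are the starting cells. CiCM are cardiomyocyte-like cells induced from MEF with 10 µM CHIR99021 (a GSK3 inhibitor), 10 µM RepSox (which blocks TGF-beta receptor signalling), 50 µM forskolin (which raises cAMP), 0.5 mM VPA (valproic acid, a histone deacetylase inhibitor), 5 µM Parnate (an inhibitor of monoamine oxidases and of LSD1) and 1 µM TTNPB (an agonist of retinoic acid receptors). They were picked as beating clusters on day 24, so a CiCM sample is a selected part of a culture. CM are cardiomyocytes isolated from mouse hearts, with no age or strain analysed here. The 3 samples of a group are biological replicates by their titles, and the design sets CiCM beside the cells they came from and the cells they were meant to resemble.

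Elastic fibres give arteries, lungs, skin and heart valves their recoil. Fibrillin microfibrils form a scaffold on which the fibulins help to lay down tropoelastin, the soluble product of Eln, and the copper enzymes of the lysyl oxidase family oxidise lysines in elastin and collagen so that the chains become covalently cross-linked. In the heart most of this matrix is made by fibroblasts, smooth muscle cells and cells of the valves rather than by cardiomyocytes, and TGF-beta is a known inducer of several of the genes.

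Values are log2 signals, on which a difference of 1 is a doubling, and a gene was called where limma gave an adjusted p below 0.05 with a difference of 1 or more. The low-value line is 6.58, the median of the table, below which signals are noisy. Levels are compared between groups for one probe set and never between genes. Array medians ran from 6.37 to 6.53 in MEF, 6.41 to 6.53 in CiCM and 6.75 to 6.85 in CM. The signal of the 3' control probe set of beta-actin exceeded that of the 5' one by 0.22 to 0.29 in MEF, 0.28 to 0.48 in CiCM and 0.86 to 1.24 in CM. For Gapdh, 3' minus 5' was -0.47 to -0.42 in MEF, -0.38 to -0.36 in CiCM and -0.30 to -0.20 in CM. Relative to 3', the 5' signal was thus weakest in CM by both controls, with a smaller shift for Gapdh. The part of this in the CM differences was not tested. All 10 cardiomyocyte markers, such as Myh6, were higher in CM than in MEF, beside 22.1% of all tested genes. In CiCM against MEF, 8 of those 10 were higher, with a median of 4.61, beside 11.6% of all tested genes. All 8 skeletal muscle markers, such as Myh8, were higher too, with a median of 9.82. The MEF means of these markers, except Tnnt2, lay under the low-value line, which makes the sizes uncertain. Tnni3 and Pln, called higher, also had CiCM means under it, and with 32 added they differed by 1.05 and 0.84. In bulk RNA, fewer cells of a type and less RNA per cell cannot be told apart.

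All 7 measured genes were lower in CiCM than in MEF, beside 12.2% of all tested genes, and none was higher, beside 11.6%. The differences ran from -3.10 to -1.18 with a median of -1.49, against a median of -0.03 over all tested genes. Signals in CiCM came to between 11.7% (Fbln5) and 44.0% (Loxl4) of those in MEF. The CiCM mean of Loxl4, 6.52, lay under the low-value line, and those of the other 6 genes lay above it. Loxl4 passed the filter through its MEF mean alone (7.70, beside 5.78 in CM), so it could be called here only as lower. Its call was lost with no filter and with 32 added to the linear signals. No gene's CiCM arrays overlapped its MEF arrays, which was also true of 68.5% of all tested genes. In CM, 6 of the 7 were lower than in MEF, beside 21.8% of all tested genes, with a median of -3.71, and none was higher, beside 22.1%. The arrays of the same 6 did not overlap, beside 75.2% of all tested genes. Eln was the exception in both counts.

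**Figure D1:**
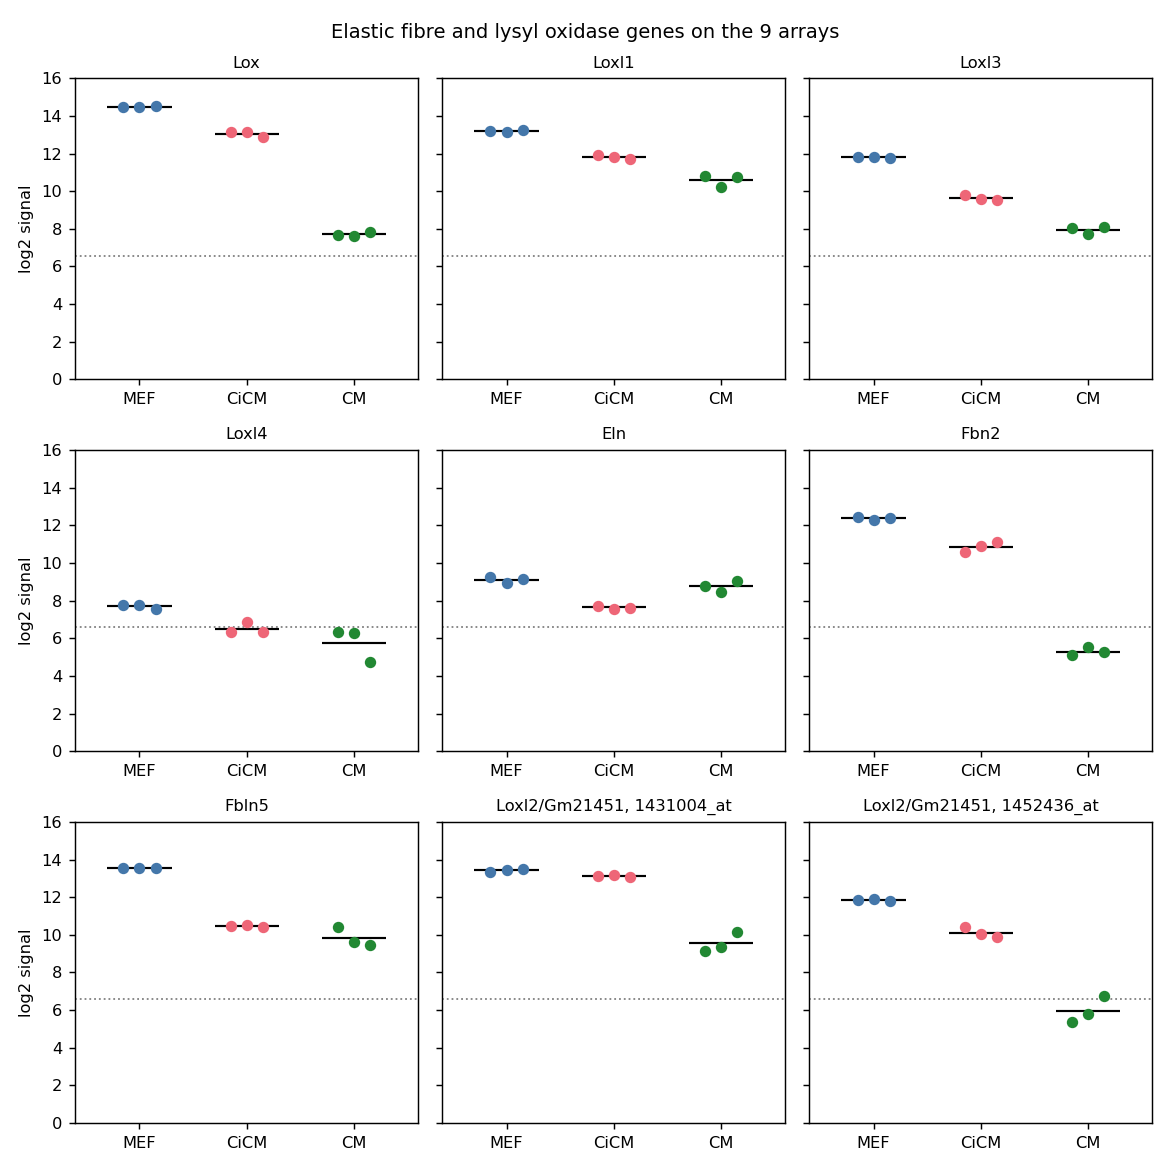
Log2 signal (vertical axis, 0 to 16) on the 3 MEF, 3 CiCM and 3 CM arrays for the probe set used for each gene and for both probe sets shared by Loxl2 and Gm21451; each point is 1 array, bars are group means and the dotted line is the low-value line at 6.58. The MEF points lie above the CiCM points in every panel, while CM lies far below both for Lox and Fbn2 and close to MEF for Eln.

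Lox (Entrez Gene 16948) encodes the founding lysyl oxidase, which cross-links both elastin and fibrillar collagen. It stood at 14.49, 14.47 and 14.51 on the MEF arrays, at 13.14, 13.16 and 12.89 on the CiCM arrays and at 7.65, 7.61 and 7.85 on the CM arrays. The 3 groups did not overlap, and the CM arrays were far below both kinds of cultured cell. CiCM was lower than MEF by -1.43 ± 0.10 (SE, limma adjusted p = 8.69e-07), or 37.2% of the MEF signal. CM was lower than MEF by -6.78 ± 0.10 (SE, limma adjusted p = 2.42e-11), a 110-fold difference. CiCM thus exceeded CM by 5.36 ± 0.10 (SE, limma adjusted p = 3.38e-10), or 41.0-fold.

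The probe sets of Lox agreed in direction and differed in size. On 1448228_at the MEF mean was 14.29 ± 0.02, the CiCM mean 11.91 ± 0.28 and the CM mean 6.42 ± 0.30 (SD, n = 3). There the difference from MEF was -2.38 in CiCM and -7.87 in CM (limma adjusted p = 9.45e-07 and 7.83e-11). The third probe set, 1437903_at, had a mean under the low-value line in all 3 groups and gave -0.60 for CiCM minus MEF, with overlapping arrays.

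Loxl1 (Entrez Gene 16949) encodes the family member most closely tied to elastin renewal. It was at 13.22, 13.18 and 13.24 in MEF, 11.94, 11.81 and 11.73 in CiCM and 10.83, 10.21 and 10.74 in CM. No array of one group reached into another, and the step from MEF to CiCM was about as large as that from CiCM to CM. The differences were -1.38 ± 0.14 for CiCM minus MEF (SE, limma adjusted p = 1.95e-05) and 1.23 ± 0.14 for CiCM minus CM (SE, limma adjusted p = 2.60e-05). CM carried 16.3% of the MEF signal (-2.62, limma adjusted p = 5.87e-08). Its other probe set, 1436063_at, gave -1.28 for CiCM minus MEF and 0.91 for CiCM minus CM, the latter without a call (limma adjusted p = 0.0841).

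Loxl3 (Entrez Gene 16950), which has scavenger receptor domains beside its catalytic domain and acts where muscle joins tendon, had the largest drop in CiCM among the 4 oxidases with probe sets of their own, by the probe set used for each. Its signals were 11.85, 11.83 and 11.79 in MEF, 9.78, 9.57 and 9.51 in CiCM, and 8.04, 7.72 and 8.09 in CM. The groups were separate, in the order MEF, CiCM, CM. CiCM minus MEF was -2.20 ± 0.12 (SE, limma adjusted p = 2.22e-07), a 4.60-fold drop. CM was lower than MEF by -3.87 (limma adjusted p = 1.40e-09), and CiCM exceeded CM by 1.67 (limma adjusted p = 9.60e-07). A single probe set covers this gene.

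Loxl4 (Entrez Gene 67573), another oxidase with scavenger receptor domains, was dim. On the probe set used it was at 7.76, 7.77 and 7.56 in MEF, 6.34, 6.89 and 6.32 in CiCM, and 6.31, 6.29 and 4.73 in CM. CiCM and CM lay around or under the low-value line, and CM replicate 3 was lowest. CiCM was lower than MEF by -1.18 ± 0.43 (SE, limma adjusted p = 0.0402), a call lost in 5 of the 9 fits that left out 1 array (MEF replicate 1, 2 or 3, or CiCM replicate 1 or 3, adjusted p 0.0760 to 0.105) and with 32 added to the linear signals (-0.95). The same call was also lost with no filter on low values (limma adjusted p = 0.0585) and with a larger constant added (-0.61). CM was lower than MEF by -1.92 ± 0.43 (SE, limma adjusted p = 0.00222). CiCM and CM differed by 0.74, with a 95% interval from -0.22 to 1.70 (limma adjusted p = 0.153).

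The other Loxl4 probe set, 1421153_at, gave a larger difference between CiCM and CM. It was at 8.53, 8.60 and 8.62 in MEF, 7.21, 7.43 and 7.69 in CiCM, and 2.0, 2.57 and 6.17 in CM. The CM arrays were all lowest but far apart from each other. CiCM minus CM was 3.86 there (limma adjusted p = 0.00241 over all probe sets), and CiCM minus MEF was -1.14 (limma adjusted p = 0.294).

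Both probe sets shared by Loxl2, an oxidase of collagen in basement membranes and fibrotic matrix, and Gm21451 were lower in CM. On 1431004_at the signals were 13.35, 13.46 and 13.51 in MEF, 13.13, 13.21 and 13.06 in CiCM, and 9.14, 9.38 and 10.18 in CM. CiCM minus MEF was -0.31 there, with a 95% interval from -0.77 to 0.15 (limma adjusted p = 0.251), although the arrays did not overlap. On 1452436_at the signals were 11.87, 11.90 and 11.79 in MEF, 10.41, 10.04 and 9.87 in CiCM, and 5.37, 5.77 and 6.77 in CM. There CiCM was lower than MEF by -1.75 (limma adjusted p = 0.000601). The 2 probe sets differ in their call for CiCM, and which gene or transcript each of them reads cannot be told apart here. CM was lower than MEF on both, by -3.88 and -5.88 (limma adjusted p = 4.49e-08 and 2.52e-08).

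**Figure D2:**
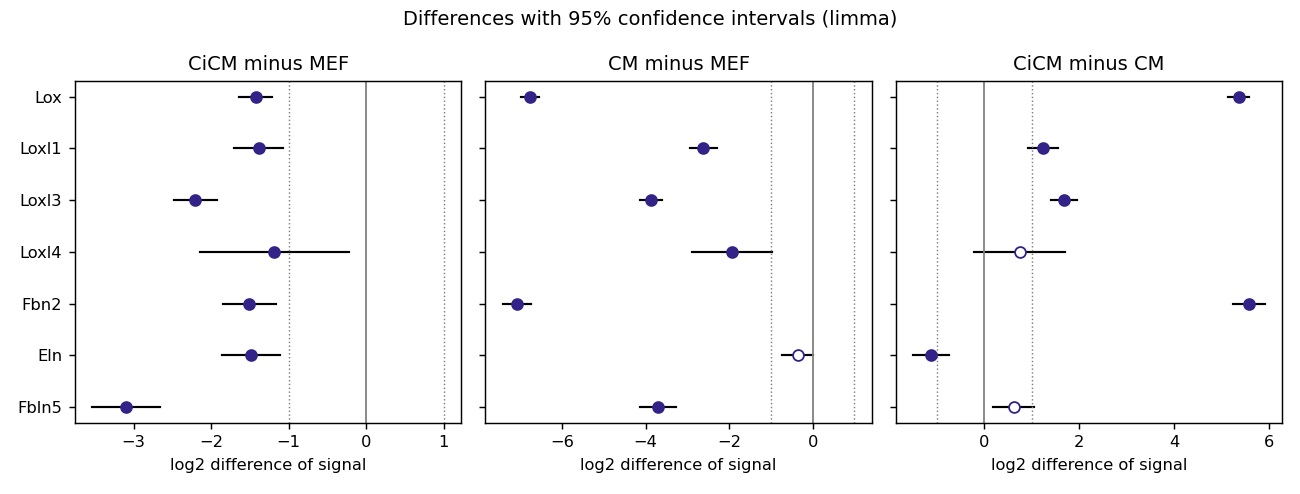
Log2 difference of signal (horizontal axis) for each of the 7 genes in the 3 comparisons, with 95% confidence intervals from limma; filled points were called and open points were not, and dotted lines mark differences of -1 and 1. All 7 points are filled and left of 0 for CiCM minus MEF, and Eln alone lies left of 0 for CiCM minus CM.

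Eln (Entrez Gene 13717) encodes tropoelastin, the elastic core of the fibre, and followed another order. It stood at 9.25, 8.96 and 9.16 in MEF, 7.73, 7.58 and 7.60 in CiCM and 8.77, 8.49 and 9.04 in CM. The CiCM arrays were the lowest, and the CM arrays overlapped those of MEF. CiCM was lower than MEF by -1.49 ± 0.17 (SE, limma adjusted p = 3.76e-05), or 35.7% of its signal. CM minus MEF was -0.36, with a 95% interval from -0.73 to 0.01 (limma adjusted p = 0.0755). CiCM was lower than CM by -1.12 ± 0.17 (SE, limma adjusted p = 0.000174).

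That last call lay near the minimum difference. Without CM replicate 3, the CM array with most Eln signal, it was -0.99 and no longer called. It was -0.82 with arrays centred on their medians, -0.55 with arrays levelled on their hybridisation controls (limma adjusted p = 0.0931) and -0.84 with probe sets averaged. The other Eln probe set, 1420854_at, was at 7.18, 7.42 and 6.60 in MEF, 3.87, 3.65 and 5.70 in CiCM, and 4.78, 3.22 and 6.89 in CM. It was lower in CiCM than in MEF by -2.66 (limma adjusted p = 0.0305), while its CM arrays were scattered and overlapped those of both other groups.

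The CM arrays also carried markers of cells other than cardiomyocytes. All 8 endothelial markers were called higher in CM than in MEF, beside 22.1% of all tested genes. Their summed linear signal was 16555 to 18032 in CM, 542 to 804 in MEF and 404 to 484 in CiCM. Smooth muscle markers, 8 genes, summed to 21797 to 28727 in CM, 52302 to 53504 in MEF and 42810 to 48124 in CiCM. This smooth muscle sum mixes directions. In CM against MEF, Des (4.21) and Myocd (4.99) were called higher, 4 markers were called lower and 2 were not called. Des stood at a mean of 13.82 in CM, 14.01 in CiCM and 9.60 in MEF, and was the brightest of the 8 in CM. The CM sum therefore leans on Des and cannot be read as an amount of smooth muscle cells. Fibroblast markers, 10 genes, summed to 40825 to 51332 in CM, 111270 to 113594 in MEF and 118459 to 123588 in CiCM. That sum covers markers of differing direction. In CM against MEF, Lum (3.08) and Dcn (1.92) were called higher and the other 8 lower. In CiCM against MEF, Lum (2.84) and Dcn (1.46, but -0.59 with its probe sets averaged) were called higher and Thy1 (-1.76) lower. Another 7 were not called there, among them Pdgfrb at -0.74. Macrophage markers, 8 genes, summed to 27542 to 30848 in MEF, 4223 to 7170 in CiCM and 13161 to 20039 in CM. Lyz2 was the brightest of them in each group. In CM against MEF, 3 of the 8 were called lower, beside 21.8% of all tested genes, and 5 were not called, with Csf1r at 0.84. Of 58 marker genes, Myh6, Vwf and Myh8 were each listed at 0 on 1 array, and none of the others was. The part of these cells in the differences of Eln and the other genes was not tested.

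Fbn2 (Entrez Gene 14119), the fibrillin of embryonic microfibrils, showed a wide span between cultured cells and heart cells. On the probe set used, its signals were 12.44, 12.31 and 12.38 in MEF, 10.61, 10.88 and 11.10 in CiCM, and 5.09, 5.55 and 5.25 in CM. The CM arrays were all under the low-value line. The drop from MEF to CiCM was -1.51 ± 0.15 (SE, limma adjusted p = 1.78e-05). CM was lower than MEF by -7.08 ± 0.15 (SE, limma adjusted p = 1.39e-10), or -6.23 with 32 added. CiCM exceeded CM by 5.57 (limma adjusted p = 2.05e-09), or 4.73 with 32 added. The second probe set, 1422831_at, gave -1.55 for CiCM minus MEF and -6.42 for CM minus MEF.

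Fbln5 (Entrez Gene 23876) encodes fibulin 5, which binds tropoelastin and Loxl1 and brings them to the microfibril, and it had the largest drop in CiCM among the 7 genes. It was at 13.54, 13.58 and 13.57 in MEF, 10.48, 10.51 and 10.42 in CiCM, and 10.43, 9.64 and 9.48 in CM. CM replicate 1 lay within the range of the CiCM arrays, and the other CM arrays lay lower. CiCM was lower than MEF by -3.10 ± 0.20 (SE, limma adjusted p = 5.41e-07), an 8.55-fold difference, and CM by -3.71 ± 0.20 (SE, limma adjusted p = 4.62e-08). CiCM minus CM was 0.62, with a 95% interval from 0.18 to 1.05 (limma adjusted p = 0.0177), under the minimum difference. A dim second probe set, 1446377_at, lay under the low-value line in all groups, at -2.31 for CiCM minus MEF and -2.29 for CM minus MEF.

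**Figure D3:**
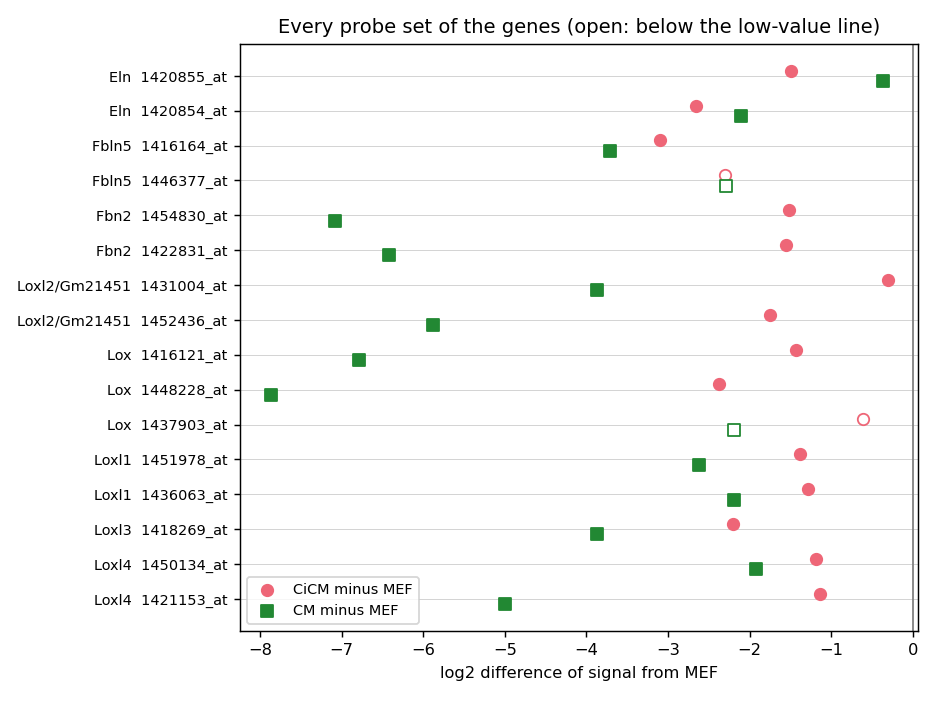
Log2 difference from MEF (horizontal axis) for each of the 16 probe sets, with circles for CiCM and squares for CM; open symbols mark probe sets under the low-value line in every group. Every symbol lies left of 0, and the circles of Lox, Eln and the shared Loxl2 and Gm21451 probe sets differ in size within a gene.

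Promoter sequence from RefSeq (GRCm38.p6) was read for 2 of the 7 genes, Fbln5 and Loxl4. They had the largest and the smallest drop in CiCM but were not chosen by it. Promoters of the other genes were not analysed here. Shown are the 250 bases before the start, each on the minus strand, of Fbln5 at chr12:101819120-101819369 and of Loxl4 at chr19:42612807-42613056, with motif matches in capitals.
Fbln5: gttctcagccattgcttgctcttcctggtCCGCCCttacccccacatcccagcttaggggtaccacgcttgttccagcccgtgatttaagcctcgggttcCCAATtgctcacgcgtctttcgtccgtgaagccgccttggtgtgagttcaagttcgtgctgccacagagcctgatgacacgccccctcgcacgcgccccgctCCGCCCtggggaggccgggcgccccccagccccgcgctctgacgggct
Loxl4: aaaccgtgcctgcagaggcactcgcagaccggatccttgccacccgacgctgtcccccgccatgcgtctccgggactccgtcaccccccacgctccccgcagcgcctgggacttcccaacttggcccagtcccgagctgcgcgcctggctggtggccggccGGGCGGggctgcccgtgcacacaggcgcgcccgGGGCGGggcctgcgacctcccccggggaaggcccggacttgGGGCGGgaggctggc
Both strands were searched for the CCAAT box (CCAAT), the GC box (GGGCGG), the TATA box (TATAAA), the AP-1 site (TGANTCA) and the SMAD box (CAGACA), and no 2 matches overlapped. Fbln5 held a CCAAT box at position -150 and GC boxes on the other strand at -221 and -48, with positions counted back from the start to the first base of the match. Loxl4 held GC boxes at -89, -56 and -15. Among 32851 such windows, the GC box was found in 32.7%, the CCAAT box in 33.8%, the TATA box in 12.4%, the AP-1 site in 6.75% and the SMAD box in 17.1%. Neither printed window held a TATA box, an AP-1 site or a SMAD box by these letters. The windows were GC-rich, at 65.2% for Fbln5 and 76.0% for Loxl4. Fbln5 has another listed start on the same chromosome, with a SMAD box at -15 of its window.

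The CiCM to CM comparison splits the genes. Lox, Loxl1, Loxl3 and Fbn2, 4 of 7, were higher in CiCM, beside 16.5% of all tested genes, and Eln, 1 of 7, was lower, beside 19.0%. Fbln5 and Loxl4 did not pass. Loxl4 did pass with quantile scaling (1.06), centring on medians (1.05), arrays levelled (1.32) and probe sets averaged (2.30), and Fbln5 with arrays levelled (1.19). The order of levels was MEF, then CiCM, then CM for Lox, Loxl1, Loxl3 and Fbn2, with every neighbour in that order called. For Eln it was MEF, CM, CiCM, where MEF and CM did not differ beyond the threshold. The comparisons share arrays, so a low CM value enters 2 of them.

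Genes whose log2 signal followed that of a member most closely over the 9 arrays are given as a description, since the 3 groups make up most of the variation in each. For Eln they were Sdc3 (Pearson r = 0.99), Btbd3 (0.98) and Ccnd1 (0.98), which were lowest in CiCM, with Sdc3 at a mean of 10.79 for MEF, 8.16 for CiCM and 9.99 for CM. For Loxl1 they were Gask1b, Ptbp1 and Jpt2, each at 1.00 after rounding, with Gask1b means of 13.14, 12.08 and 11.06 (MEF, CiCM, CM). For Loxl4 they were Foxd3 (0.99), Gspt2 (0.98) and Lrp8 (0.98), whose CM means were all under the low-value line.

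Proteins that build or decorate the microfibril did not move as a block. The list held 20 gene names, among them Thsd4 and its other name Adamtsl6, and 17 genes were tested. Against MEF, CiCM had 3 of the 17 higher, beside 11.6% of all tested genes, and 5 lower, beside 12.2%. The median was 0.15 against -0.03 over all tested genes. The 4 largest drops were in Ltbp4 (-3.67, limma adjusted p = 0.00353), Ltbp2 (-2.26, limma adjusted p = 5.59e-05), Adamts10 (-1.43) and Ltbp1 (-1.38). The CiCM mean of Ltbp4 lay under the low-value line, and its drop was -2.43 with 32 added. Ltbp1 binds latent TGF-beta to fibrillin, and Ltbp4 works with fibulin 5 in elastin assembly. Thsd4, a fibrillin-binding protein, was higher by 2.12, Adamtsl2 by 1.80 and the proteoglycan gene Dcn by 1.46. The MEF means of Thsd4 and Adamtsl2 lay under the low-value line, and with 32 added they differed by 1.68 and 1.11. The Adamtsl2 call (limma adjusted p = 0.0395) was lost on leaving out MEF replicate 3 (0.93), CM replicate 2 (1.80) or CiCM replicate 1 or 3 (1.54 and 1.80). It was also lost with quantile scaling (1.76), levelled arrays (1.57), no variance trend (1.80) or array weights (1.47), and Dcn was -0.59 with its probe sets averaged.

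In CM against MEF the same list had 7 genes higher and 7 lower, beside 22.1% and 21.8% of all tested genes, with a median of -0.05. Ltbp2 (-5.90), Mfap4 (-5.02), Mfap2 (-3.10) and Vcan (-2.86) were lowest. The CM arrays of Mfap4 were scattered, at 7.89, 6.84 and 3.35, and it differed by -4.18 with 32 added. Mmrn2, an endothelial matrix protein, was higher by 4.53, Adamtsl2 by 3.08, Ltbp4 by 2.73 and Adamtsl4 by 2.44. The MEF means of Mmrn2 and Adamtsl2 lay under the low-value line, and with 32 added they differed by 3.75 and 2.22. Mmrn2 passed the filter through its CM mean alone (9.96, beside 5.43 in MEF and 5.58 in CiCM), so CM could be called only as higher. Ltbp4 therefore had its lowest signal in CiCM, as Eln did, at 8.46 ± 0.18 for MEF, 4.80 ± 2.20 for CiCM and 11.19 ± 0.37 for CM (SD, n = 3). CiCM against CM had 6 genes higher, beside 16.5% of all tested genes, led by Mfap4 (6.92, or 6.07 with 32 added), Vcan (3.71), Ltbp2 (3.64) and Mfap2 (1.73). It had 4 lower, beside 19.0%, namely Ltbp4 (-6.39, or -5.05 with 32 added), Mmrn2 (-4.38, or -3.67 with 32 added), Adamtsl4 (-1.98) and Adamts10 (-1.37, or -0.80 with arrays levelled and no longer called).

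**Figure D4:**
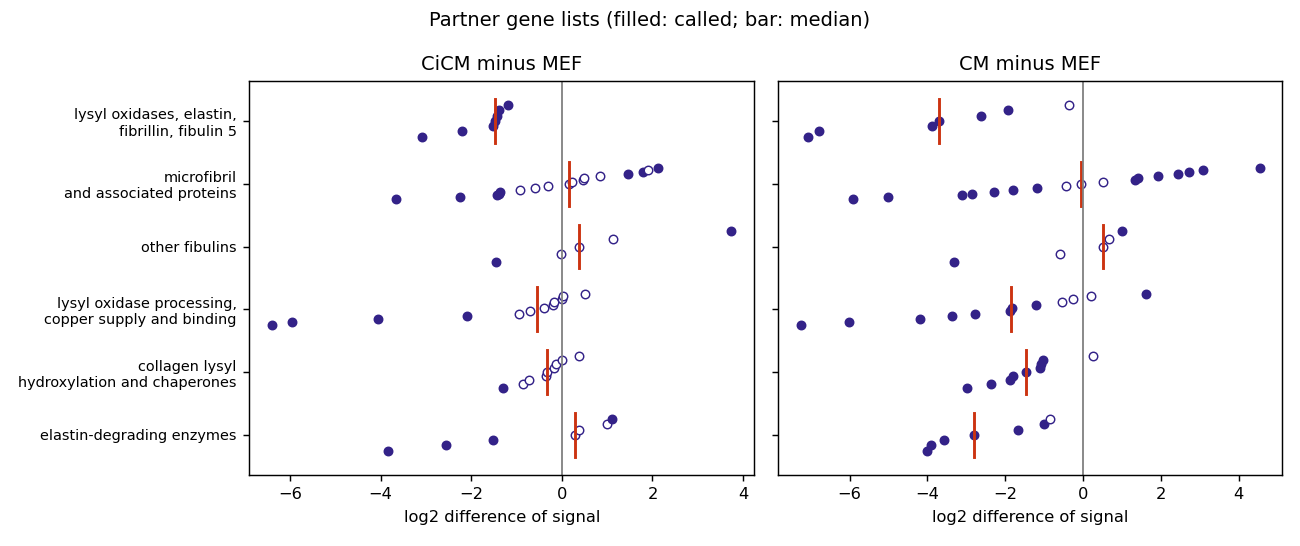
Log2 difference of signal (horizontal axis) of each tested gene in the 5 partner lists and of the 7 genes themselves, for CiCM minus MEF and CM minus MEF; filled points were called, open ones were not, and bars are medians. For CiCM minus MEF the top row lies wholly left of 0 with a median of -1.49, while the median of the microfibril list is 0.15.

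Of the other fibulins, 5 were tested, and 1 was called in each direction in CiCM against MEF, beside 12.2% of all tested genes lower and 11.6% higher, too few to tell from that background. Fbln2, which binds fibrillin and elastin, was lower in CiCM than in MEF (-1.45, limma adjusted p = 6.97e-06), and Fbln7, an adhesion protein, was higher (3.73, limma adjusted p = 0.000215; 2.79 with 32 added, since MEF was under the low-value line). In CM, Fbln2 was lower than in MEF by -3.32 and Hmcn1 higher by 1.00, a call lost without MEF replicate 2 (0.93), CM replicate 1 (0.95) or CM replicate 2 (0.97) and with arrays levelled (0.20). CiCM exceeded CM for Fbln7 (3.07, or 2.39 with 32 added), Fbln2 (1.87) and Efemp1 (1.72). Fbln7 passed the filter through its CiCM mean alone (8.67, beside 4.94 in MEF and 5.60 in CM), so CiCM could be called only as higher. The Efemp1 call (limma adjusted p = 0.0321) was lost without any 1 CiCM array or without CM replicate 2 or 3 (1.14 to 1.87). Its CM arrays were scattered, at 11.44, 8.72 and 8.35, and without CM replicate 1 the difference was 2.69.

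Of 13 listed genes for activating, loading with copper or binding lysyl oxidases, 12 were tested. Against MEF, CiCM had 4 of them lower, beside 12.2% of all tested genes, and none higher, beside 11.6%, with a median of -0.55. They were Tll1 (-6.39), a protease of the Bmp1 family, Pcolce2 (-5.96), which enhances procollagen cleavage, Fmod (-4.05), a collagen-binding proteoglycan, and Thbs1 (-2.09). Tll1 was at 4.77 and 4.77 on the first 2 CiCM arrays and listed at 0 on CiCM replicate 3. It passed the filter through its MEF mean alone (9.57, beside 3.18 in CiCM and 5.37 in CM). Against MEF it could thus be called only as lower, in CiCM and in CM. Signals of Tll1 and Pcolce2 in CiCM were under the low-value line, and with 32 added they differed by -4.02 and -3.84. The Fmod call (limma adjusted p = 0.0329) was lost without any 1 MEF or CiCM array (-4.21 to -3.82). Bmp1, which cuts the lysyl oxidase precursor to its active form, was at 10.86 ± 0.06 in MEF and 10.67 ± 0.09 in CiCM (SD, n = 3; limma adjusted p = 0.125). Atp7a, the pump that delivers copper to secreted enzymes, was at 10.44 ± 0.09 and 10.47 ± 0.05. Both are named outside the fixed rule for that comparison, after their values were seen.

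In CM, 8 of these 12 were lower than in MEF, beside 21.8% of all tested genes, and 1 was higher, beside 22.1%, with a median of -1.85. Thbs1 (-7.25), Fmod (-6.02), Tll1 (-4.20) and Fn1 (-3.38) were lowest. The CM arrays of Fmod were scattered, at 9.50, 5.50 and 1.78. The CM means of Fmod and Tll1 lay under the low-value line, and with 32 added they differed by -4.64 and -3.42. Pcolce2 was higher by 1.61 (limma adjusted p = 0.0335), a call lost without any 1 MEF or CM array (1.50 to 1.74) and with arrays levelled (0.81). CiCM exceeded CM in 6 of the 12, beside 16.5% of all tested genes, among them Thbs1 (5.16), Fn1 (2.44), Postn (2.40), which binds Bmp1 in collagen cross-linking, and Bmp1 (1.68). Pcolce2 was the 1 gene lower in CiCM than in CM (-7.58, or -5.41 with 32 added), beside 19.0%.

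Of the enzymes and chaperones that prepare collagen for cross-linking, 9 were tested. P4ha2 (-1.31), a prolyl hydroxylase subunit, was the 1 gene lower in CiCM than in MEF, a share near the 12.2% of all tested genes, with a list median of -0.32. In CM, 8 of 9 were lower than in MEF, beside 21.8% of all tested genes, with a median of -1.46, led by P4ha1 (-2.99), P4ha2 (-2.38), the collagen chaperone gene Serpinh1 (-1.89) and the lysyl hydroxylase gene Plod2 (-1.80). CiCM exceeded CM in P4ha1 (2.27), P3h1 (1.84), Serpinh1 (1.55) and P4ha2 (1.07, or 0.98 without CiCM replicate 2).

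Of the elastin-degrading enzymes, 7 were tested. In CiCM against MEF, 3 were lower, beside 12.2% of all tested genes, namely Mmp9 (-3.83), Ctss (-2.55) and Mmp12 (-1.53), which macrophages are known to make. Ctsk, the collagen- and elastin-cleaving cathepsin K, was the 1 gene higher, beside 11.6%, by 1.10 (limma adjusted p = 0.000403), or 0.87 and no longer called with arrays levelled. The median was 0.30. All 8 macrophage markers were also called lower in CiCM, with a median of -2.31 against MEF, and their part in the protease values was not tested. In CM, 6 of 7 enzymes were lower than in MEF, beside 21.8% of all tested genes, with Mmp12 at -4.02, Mmp14 at -3.92, Mmp9 at -3.57 and Ctsk at -2.81. The CM mean of Mmp12 lay under the low-value line, and it differed by -3.50 with 32 added. CiCM exceeded CM in 5, beside 16.5% of all tested genes, led by Mmp14 (4.22), Ctsk (3.91), Mmp2 (2.66) and Mmp12 (2.50, or 2.05 with 32 added). Ctss was the 1 gene lower in CiCM than in CM, beside 19.0% (-1.53, or -0.96 and not called with arrays levelled).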

How the data were processed

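Total RNA of the 9 samples was amplified with a 3' kit, biotin-labelled and hybridised, 1 array a sample, per the labels' protocols. The authors' deposited values are log2 signals of 45101 probe sets, a scale read from the values themselves. The submitters' processing notes name MAS5 with no version. No detection calls or scan dates were analysed here, and a batch aligned with the groups could not be told apart from them.

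GEO's platform annotation, possibly outdated, gave 34945 probe sets 1 symbol, 932 several and 9160 none, beside 64 control probe sets that were left out. Of a gene's probe sets with 1 symbol, the one brightest on average over the arrays stood for the gene. Genes with no group mean at or above 6.58 were left out. limma 3.58.1 in R 4.3.3 (lmFit, then eBayes using a variance trend, 2-sided) fitted the 9 arrays together without covariates, with Benjamini-Hochberg adjustment over 12559 genes. Single probe sets were tested in a like fit over all probe sets that passed the same filter. The smallest p of an exact permutation test of 3 against 3 is 0.1. The number of arrays limits the precision. The fit was tested on simulated data.

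The genes and lists were chosen with earlier results of these data known. Named genes are the 10 genes, up to 4 called genes of each partner list in each direction and comparison, by size, and for Eln, Loxl1 and Loxl4 the 3 genes with the highest r over the arrays. Alternatives were 3 constants added to the linear signals (32, 1 and a larger one), no filter, a stricter filter (8.91), other array scalings (quantiles, medians, 18 hybridisation controls), other uses of the probe sets, fits of 2 groups, without the trend or with array weights, calls on adjusted p alone, a replicate block and 1 array left out at a time. Figures were drawn with matplotlib 3.10.9.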

Additional observations from a re-analysis of the deposited data

How the results depend on the processing

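Over the 21 differences of the 7 genes, 495 values under the alternatives gave no change of direction. Of these, 469 kept their side of the threshold, 17 lost a call and 9 gained one. The count called lower in CiCM than in MEF, 7, was 6 with 32 or the largest constant added, with no filter and with each probe set on its own. It was 6 of 6 with the stricter filter, and 6 to 7 when 1 array was left out. The count called lower in CM than in MEF, 6, was 5 with the largest constant or the stricter filter, and 7 with levelling or averaging. The count of genes called lower in CiCM than in CM, 1 (Eln), was 0 with the largest constant added to the signals, with arrays centred on medians, with arrays levelled on hybridisation controls, with probe sets averaged and with each probe set on its own, and 0 to 1 when 1 array was left out. The count called higher in CiCM than in CM, 4, was 5 with quantile scaling, centring, averaging or no minimum difference, 6 with levelling, and 3 with each probe set on its own. Probe sets averaged gave Eln a called drop in CM against MEF (-1.23), as levelling did (-1.17), and turned Dcn to -0.59 for CiCM minus MEF. Averaging also moved Vcan to -1.34 for CM minus MEF and 1.77 for CiCM minus CM, Mmp9 to -5.53 for CM minus MEF, and Fbln2 and Bmp1 to 1.10 and 1.05 for CiCM minus CM. Called genes numbered 1900 in place of 2987 for CiCM minus MEF with the largest constant, and 6529, 8790 (in place of 5515) and 8089 (in place of 4462) for CiCM minus MEF, CM minus MEF and CiCM minus CM with no minimum difference. The share of calls that were higher moved from 48.6% to 35.3% for CiCM minus MEF with levelling, from 50.4% to 34.6% (centring) and 21.4% (levelling) for CM minus MEF, and from 46.5% to 62.9% and 75% for CiCM minus CM; levelling shifted the medians of all genes by -0.24, -0.85 and 0.60. Same-numbered samples did not deviate together (r -0.02 to 0.07), but whether they share a cell preparation cannot be told from this. The replicate block left the counts of the 7 genes at 7 and 6 lower than MEF, and 4 higher and 1 lower than CM. Dim signals in CM limit the size of the Fbn2 and Loxl4 differences, and of those of Mfap4, Fmod, Tll1, Mmp12 and Fbln7 among the partner genes.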
